A study of Mus musculus with 24 samples.

Results

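Parm1, Tmem74, Tmem132a, Ss18l1, Pcsk5, Htr5a, Mfsd6, Rspo2, Eya3 and Zfp804b are 10 genes of the mouse entorhinal cortex that were picked because their levels moved with those of EYFP, the fluorescent marker of a transgene, across 24 RNA-seq libraries. They are 10 of the 55417 rows of the deposited count table, and all 10 were among the 16767 genes that passed the filter on low counts. The tissue was subdissected entorhinal cortex of adult mice aged 2 to 4 months. The libraries fell into 4 groups of 6: vehicle, and day 1, day 2 and day 3 after activation of the chloride channel GlyCl. In every group, vehicle included, the genotype was tg/tg for the cross of Nop-tTA Line S with TRE-GlyCl-YFP Line 9531. Females gave 3 of the 6 libraries on each day and 4 of the 6 in vehicle. The labels name neither the agent that activated the channel nor when the vehicle mice were killed. Each library has an animal number of its own, but separate animals are not stated outright, so p-values measure the spread between these libraries. No library came from a mouse without the transgenes, so the relation of the 10 genes to carrying a transgene was not measured.

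In this Tet-Off design a fragment of the neuropsin (Klk8) promoter drives the transactivator tTA, which binds the TRE promoter and switches on the channel with its fluorescent tag. The driver is known for expression in superficial neurons of the entorhinal cortex and neighbouring areas, and opening a chloride channel of this kind silences the neurons that carry it. The 10 genes belong to no single pathway: they encode a secreted Wnt agonist, a serotonin receptor, a protease of the secretory route, several membrane proteins and nuclear regulators.

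RefSeq promoter windows were found for 7 of the 10 genes, on GRCm38.p6, a build other than the mm39 of the counts; Tmem74, Tmem132a and Rspo2 had no entry. The windows of 4 genes are shown, because among those 7 they followed EYFP most closely within the groups. Each line gives the 250 bases before the annotated start, 5′ to 3′ on the gene's strand. Capitals mark matches on either strand to any of 5 motifs: GGGCGG (the GC box), TGACG (the core of the cAMP response element), TGACGTCA (the full element, which contains the core), TATAAA (the TATA box) and CAGCTG (an E-box).
Parm1, chr5:91517450-91517699, strand +: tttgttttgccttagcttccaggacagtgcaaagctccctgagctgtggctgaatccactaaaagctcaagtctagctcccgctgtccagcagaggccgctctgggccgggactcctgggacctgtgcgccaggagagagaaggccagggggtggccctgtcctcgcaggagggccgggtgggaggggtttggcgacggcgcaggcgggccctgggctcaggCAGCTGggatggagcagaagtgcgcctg
Ss18l1, chr2:180042233-180042482, strand +: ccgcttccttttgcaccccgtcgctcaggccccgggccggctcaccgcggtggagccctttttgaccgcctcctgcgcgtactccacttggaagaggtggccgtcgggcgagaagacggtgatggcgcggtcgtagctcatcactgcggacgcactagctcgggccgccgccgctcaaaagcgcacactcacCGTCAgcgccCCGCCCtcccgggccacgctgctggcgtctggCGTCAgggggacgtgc
Pcsk5, chr19:17837633-17837882, strand -: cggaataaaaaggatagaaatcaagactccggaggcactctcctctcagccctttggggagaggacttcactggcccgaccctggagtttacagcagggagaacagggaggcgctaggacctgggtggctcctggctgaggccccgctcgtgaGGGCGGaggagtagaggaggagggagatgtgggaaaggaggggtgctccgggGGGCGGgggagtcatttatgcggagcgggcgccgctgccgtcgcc
Htr5a, chr5:27841697-27841946, strand +: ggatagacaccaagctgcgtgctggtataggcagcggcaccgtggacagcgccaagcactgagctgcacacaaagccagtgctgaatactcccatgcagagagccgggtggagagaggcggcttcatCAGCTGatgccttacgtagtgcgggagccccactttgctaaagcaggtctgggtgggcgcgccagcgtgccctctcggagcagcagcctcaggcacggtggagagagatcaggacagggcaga

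None of the 5 motifs was present in all 7 windows. GGGCGG was present in 4 of 7, against 32.7% of all 32851 windows of this length. CAGCTG was present in 2 of 7 (Parm1 and Htr5a), against 13.0% of all windows, and TGACG in 1 of 7 (Ss18l1), against 17.8%. TGACGTCA and TATAAA were in 0 of 7, against 1.55% and 12.4% of all windows. G and C made up 58.4% to 70.4% of the 7 windows, beside a median of 52.4% over all windows and 34.8% to 73.6% at their 5th and 95th percentiles. A match describes letters and is no evidence that a factor binds there.

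EYFP reports the transgene and sets the frame for the 10 genes. Its lowest, median and highest level was 94.3, 108 and 139 CPM in vehicle, 75.9, 111 and 134 CPM at day 1, 81.6, 102 and 118 CPM at day 2 and 50.9, 62.1 and 77.4 CPM at day 3 (CPM, the usual per-library scaling of a count to its normalised total). All 6 day 3 libraries lay below all 6 vehicle libraries, whereas the ranges of days 1 and 2 overlapped vehicle. EYFP averaged 61.7 ± 9.82 CPM at day 3 and 113.0 ± 19.5 CPM in vehicle (SD, n = 6 each), a log2 fold change of -0.89 ± 0.11 (SE) with an adjusted p of 1.19e-05 in edgeR's quasi-likelihood test. At day 1 the log2 fold change was -0.07 ± 0.11 (adjusted p = 0.948, edgeR), and at day 2 it was -0.17 ± 0.11 (adjusted p = 0.982, edgeR).

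Glra1, which encodes a glycine receptor alpha subunit, fell with EYFP. It averaged 7.57 ± 1.23 CPM at day 3 and 13.1 ± 2.62 CPM in vehicle (SD, n = 6 each), a log2 fold change of -0.83 ± 0.13 (SE; adjusted p = 0.000636, edgeR). Whether reads of the channel transgene fall in the Glra1 row was not tested. Klk8, the gene whose promoter fragment drives tTA, averaged 1.86 ± 0.473 CPM at day 3 and 2.01 ± 0.545 CPM in vehicle, and was not called (adjusted p = 0.999, edgeR). Klk8 had only 21 to 54 reads a library. Pearson's r between its log2 CPM and that of EYFP was -0.28 over the 24 libraries and -0.31 after group and sex were fitted.

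At day 3, where EYFP was lower in all 6 libraries, the log2 fold changes of the 10 genes lay between -0.06 (Ss18l1) and 0.10 (Parm1). At day 1 they lay between -0.02 (Ss18l1) and 0.30 (Zfp804b), and at day 2 between -0.10 (Zfp804b) and 0.14 (Pcsk5). Their SE was 0.04 (Mfsd6) to 0.11 at day 3, apart from 0.25 for Zfp804b. The medians over the 10 genes were 0.08, 0.03 and -0.01 on days 1, 2 and 3, beside 0.0011, 0.0006 and -0.0016 over all tested genes. Of the 10 genes, 8 were above 0 at day 1, 8 at day 2 and 4 at day 3. The range of each of the 10 genes overlapped its vehicle range on every day. The share of all tested genes that do so is not given, so nothing is read from this overlap.

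The edgeR test called 0 of the 10 genes at day 1, where 0.0656% of all tested genes were called, 0 at day 2 (0.0656%) and 0 at day 3 (0.614%). An unadjusted p under 0.05 was reached by 0 of the 10 on each day, and 0 were called by DESeq2, by limma voom or in any of the 32 alternative fits. Since the genes were chosen on these same libraries, nothing is read from these counts.

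**Figure D1:**
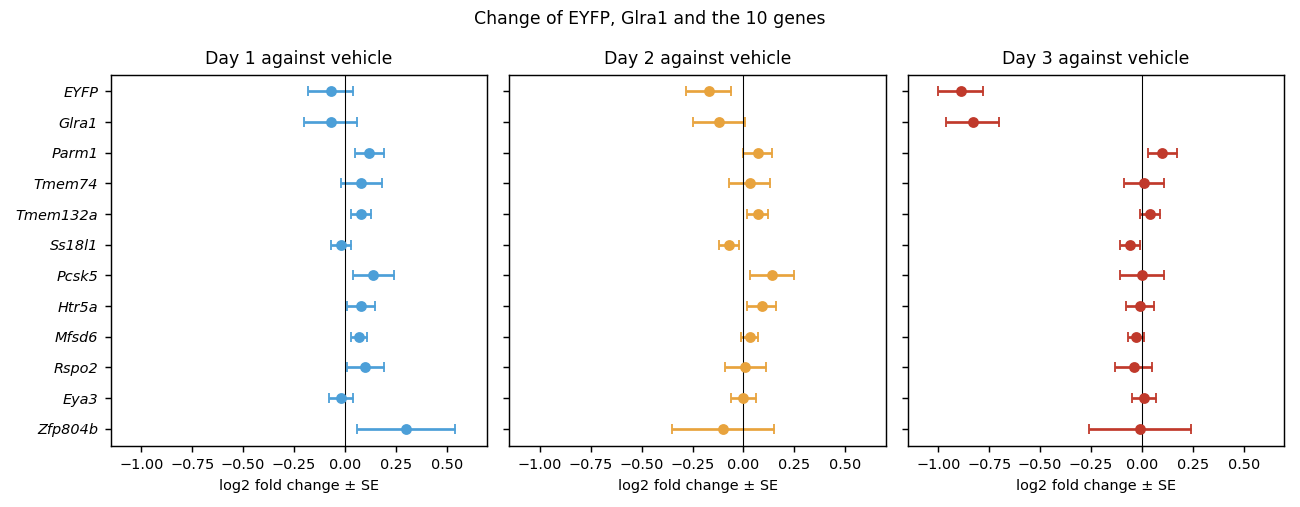
Log2 fold change and SE (edgeR fit of 24 libraries with group and sex) of EYFP, Glra1 and the 10 genes against vehicle at day 1, day 2 and day 3. At day 3 EYFP is at -0.89 and Glra1 at -0.83, while the 10 genes lie between -0.06 and 0.10.

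**Figure D2:**
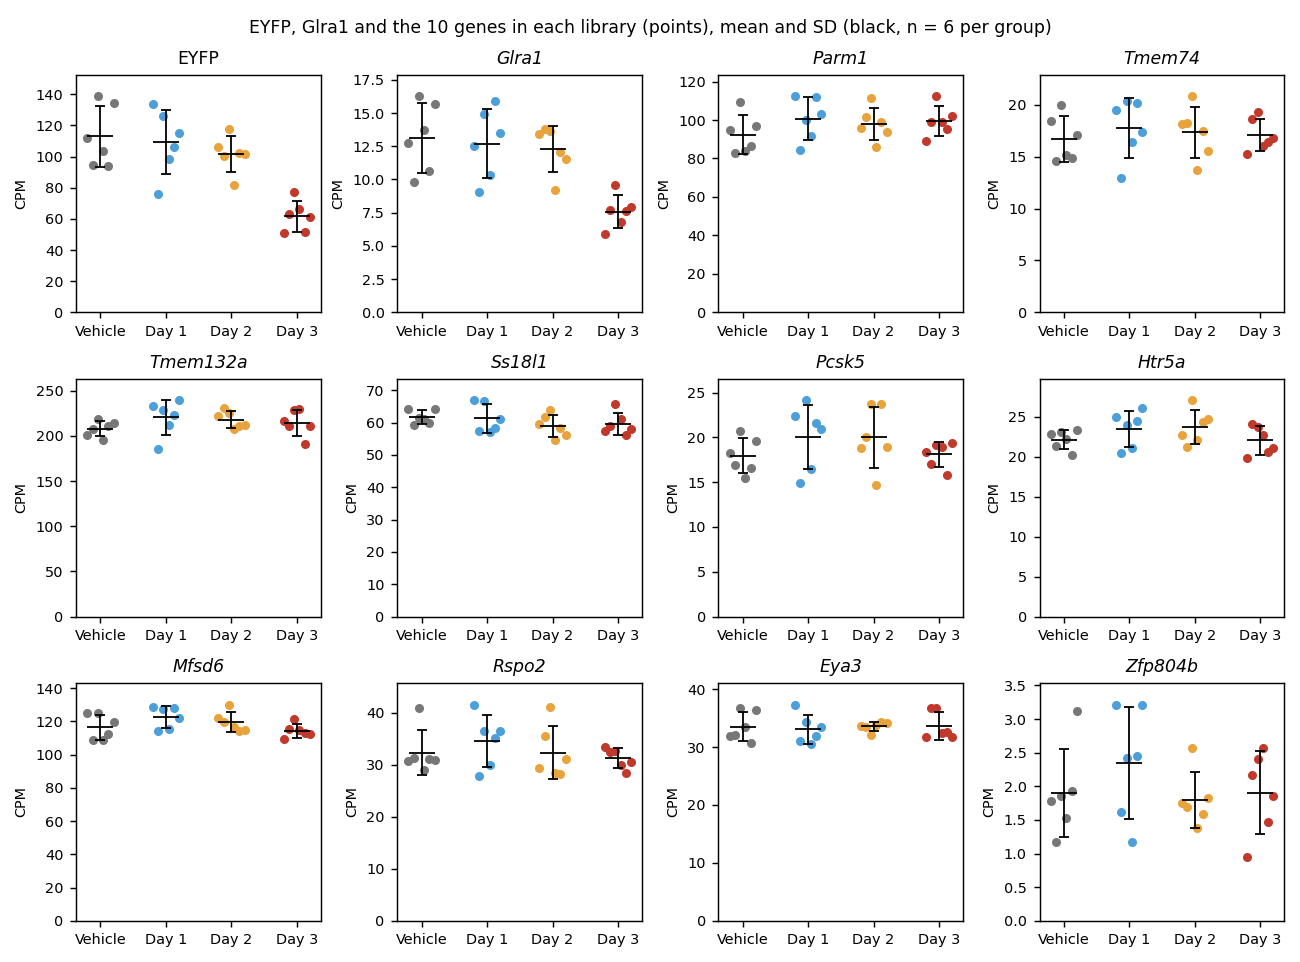
Levels in CPM (linear axes starting at 0) of EYFP, Glra1 and the 10 genes in vehicle, day 1, day 2 and day 3; points are libraries, and bars give the mean and SD of 6. All day 3 libraries are below all vehicle libraries for EYFP and Glra1. The ranges of the 10 genes overlap vehicle on every day, and the share of all tested genes that do so is not given.

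Secreted and receptor proteins among the 10 genes included Rspo2, an agonist that raises Wnt signalling through LGR receptors. The lowest, median and highest level of Rspo2 was 28.9, 31.0 and 40.9 CPM in vehicle, 27.9, 35.8 and 41.5 CPM at day 1, 28.2, 30.2 and 41.1 CPM at day 2 and 28.5, 31.5 and 33.4 CPM at day 3. The groups overlapped, and 3 libraries stood near 41 CPM, 1 each in vehicle, day 1 and day 2. Pearson's r between log2 CPM of Rspo2 and EYFP was 0.49 over the 24 libraries and 0.74 after group and sex were fitted to both. Within groups of 6 it was highest at day 1 (0.94) and lowest at day 3 (0.23), where the libraries spread least.

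Htr5a, a serotonin receptor that lowers cAMP, had lowest, median and highest levels of 20.2, 22.6 and 23.3 CPM in vehicle, 20.4, 24.2 and 26.1 CPM at day 1, 21.2, 23.6 and 27.1 CPM at day 2 and 19.9, 21.98 and 24.2 CPM at day 3. The groups overlapped, with the lowest library at day 3 and the highest at day 2. Its r with EYFP was 0.55 over all libraries and 0.76 after group and sex. Pcsk5, a proprotein convertase that cuts growth factor precursors in the secretory route, had lowest, median and highest levels of 15.5, 17.6 and 20.7 CPM in vehicle, 14.9, 21.2 and 24.1 CPM at day 1, 14.7, 19.5 and 23.8 CPM at day 2 and 15.8, 18.6 and 19.4 CPM at day 3. Both the highest (day 1 replicate 3) and the lowest (day 2 replicate 4) library of Pcsk5 lay outside day 3 and vehicle, and all groups overlapped. Its r was 0.51 over all libraries and 0.77 after group and sex.

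Parm1, a mucin-like membrane glycoprotein, followed EYFP most closely once group and sex were fitted. Its lowest, median and highest level was 83.1, 90.7 and 109 CPM in vehicle, 84.2, 102 and 112 CPM at day 1, 86.0, 97.2 and 112 CPM at day 2 and 89.3, 98.9 and 112 CPM at day 3. The groups overlapped over most of their range. The library with the highest EYFP was also the highest in Parm1 in 4 of 4 groups, and the lowest was the lowest in 3 of 4. Over the other 9 genes, the highest was shared in 1 (Tmem132a and Htr5a) to 3 groups and the lowest in 1 (Ss18l1, Rspo2 and Eya3) to 3. The genes were chosen on these same libraries, so shared extremes are given as a description only. Over the 24 libraries r was 0.29, and after group and sex it was 0.85. Within the groups it was 0.91 in vehicle, 0.81 at day 1, 0.89 at day 2 and 0.92 at day 3.

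Tmem74, a lysosomal membrane protein tied to autophagy in human cells, had lowest, median and highest levels of 14.6, 16.1 and 20.03 CPM in vehicle, 12.9, 18.4 and 20.4 CPM at day 1, 13.7, 17.8 and 20.8 CPM at day 2 and 15.3, 16.6 and 19.3 CPM at day 3. The groups overlapped, and the highest library in EYFP was the highest in Tmem74 in 3 of 4 groups, as was the lowest. Its r was 0.44 over all libraries and 0.82 after group and sex. Tmem132a, a membrane protein known from mouse embryos to act in Wnt signalling and neural tube closure, had lowest, median and highest levels of 195, 209 and 219 CPM in vehicle, 186, 226 and 239 CPM at day 1, 207, 217 and 231 CPM at day 2 and 191, 214 and 229.5 CPM at day 3. Day 1 held both ends of the Tmem132a range, and the groups overlapped. Its r was 0.37 over all libraries and 0.78 after group and sex, with 0.93 at day 1 and 0.53 in vehicle as the extremes of the single groups.

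Mfsd6, a membrane protein of the major facilitator superfamily, had lowest, median and highest levels of 109, 116 and 125 CPM in vehicle, 114, 125 and 128 CPM at day 1, 114, 118 and 130.1 CPM at day 2 and 109, 114 and 122 CPM at day 3. Its highest library was 1.20 times its lowest, the narrowest ratio of the 10 genes, and the groups overlapped. Its r over all libraries, 0.63, was the highest of the 10 genes, and after group and sex it was 0.75.

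Among the nuclear regulators, Ss18l1 (CREST), a calcium-responsive coactivator that promotes dendrite growth in mice, had lowest, median and highest levels of 59.4, 61.2 and 64.2 CPM in vehicle, 57.0, 59.7 and 66.8 CPM at day 1, 54.5, 58.9 and 63.9 CPM at day 2 and 56.0, 58.4 and 65.6 CPM at day 3. Its r was 0.55 over all libraries and 0.77 after group and sex, and within groups it was highest at day 3 (0.93). Eya3, a phosphatase and transcriptional coactivator, had lowest, median and highest levels of 30.7, 32.8 and 36.7 CPM in vehicle, 30.6, 32.7 and 37.3 CPM at day 1, 32, 33.7 and 34.4 CPM at day 2 and 31.7, 32.5 and 36.8 CPM at day 3. Day 2 had the narrowest range of Eya3, with an SD of 0.84 CPM against 2.42 to 2.53 CPM in the other groups. Its r was 0.31 over all libraries and 0.74 after group and sex, and -0.57 within day 2, the only negative value of the 10 genes within a group.

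Zfp804b, a zinc finger protein related to Zfp804a, had lowest, median and highest levels of 1.18, 1.82 and 3.11 CPM in vehicle, 1.18, 2.43 and 3.21 CPM at day 1, 1.37, 1.72 and 2.58 CPM at day 2 and 0.941, 2.02 and 2.57 CPM at day 3. It was the lowest of the 10 genes, with 19 to 71 reads a library, so its values carry the most counting error. Its groups overlapped, and its r was 0.46 over all libraries and 0.74 after group and sex.

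The place of the 10 genes among all genes depended on whether group and sex were fitted. By r over the 24 libraries they ranked from 31 (Mfsd6) to 1950 (Parm1) of 16766 genes, with a median r of 0.47, beside -0.41 to 0.40 at the 5th and 95th percentiles of all tested genes. The neighbours of Parm1 in rank, Ikbkb and Lrrc24, were at 0.29 too. That list was headed by Glra1 (0.93), the prion protein gene Prnp (0.79), Doc2a (0.75), Prkci (0.74), Necab1 (0.73), Tcf23 (0.72), Kctd3 (0.72), Fermt1 (0.71), Plch1 (0.70) and Dzank1 (0.69), none of them among the 10.

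After group and sex were fitted, the 10 genes held 10 of the first 13 ranks, with r of 0.74 to 0.85, beside -0.44 to 0.45 at the 5th and 95th percentiles of all tested genes. Bid (0.78), Glra1 (0.77) and Mettl2 (0.74) held the other 3 ranks. The last of the 10 genes was Rspo2 (0.738), and the next genes outside were D2hgdh (0.736) and Lrp11 (0.735); Bid, Mettl2, D2hgdh and Lrp11 were named after their values were seen. The stated choice, by log2 CPM across the 24 libraries, thus matched the top ranks once group and sex were taken out and did not match them otherwise. These r values chose the genes and carry no test, and the points share library depth and dissection. The r of the 10 genes with the total count of a library ran from -0.39 (Eya3) to 0.19 (Tmem132a).

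**Figure D3:**
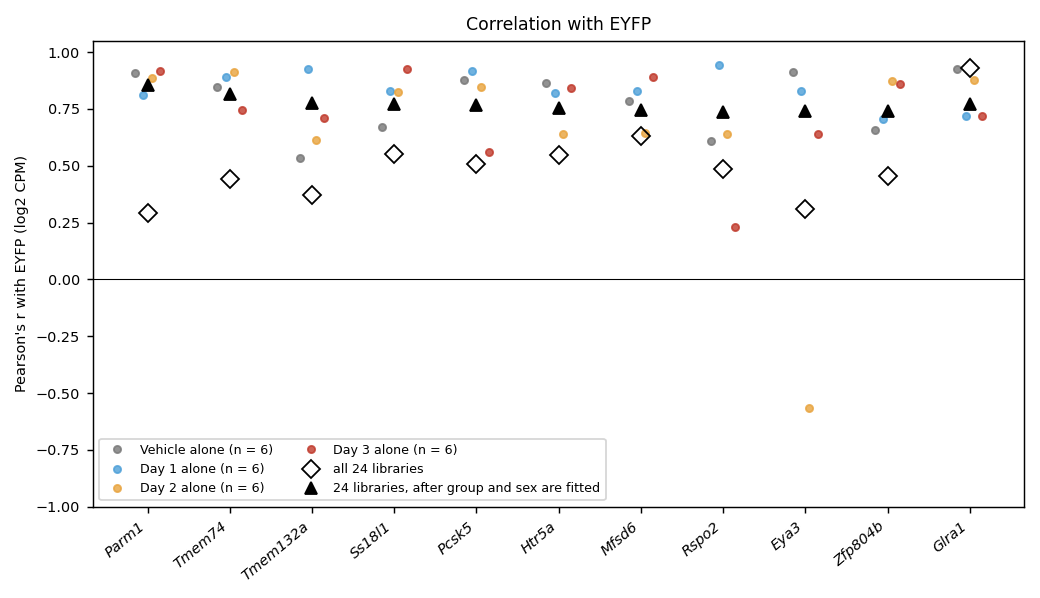
Pearson's r with EYFP (log2 CPM) for the 10 genes and Glra1 over 24 libraries (open diamonds), after group and sex are fitted (triangles) and within each group of 6 (circles). The triangles of the 10 genes lie at 0.74 to 0.85, above their diamonds at 0.29 to 0.63, and for Glra1 the diamond (0.93) lies above the triangle (0.77).

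**Figure D4:**
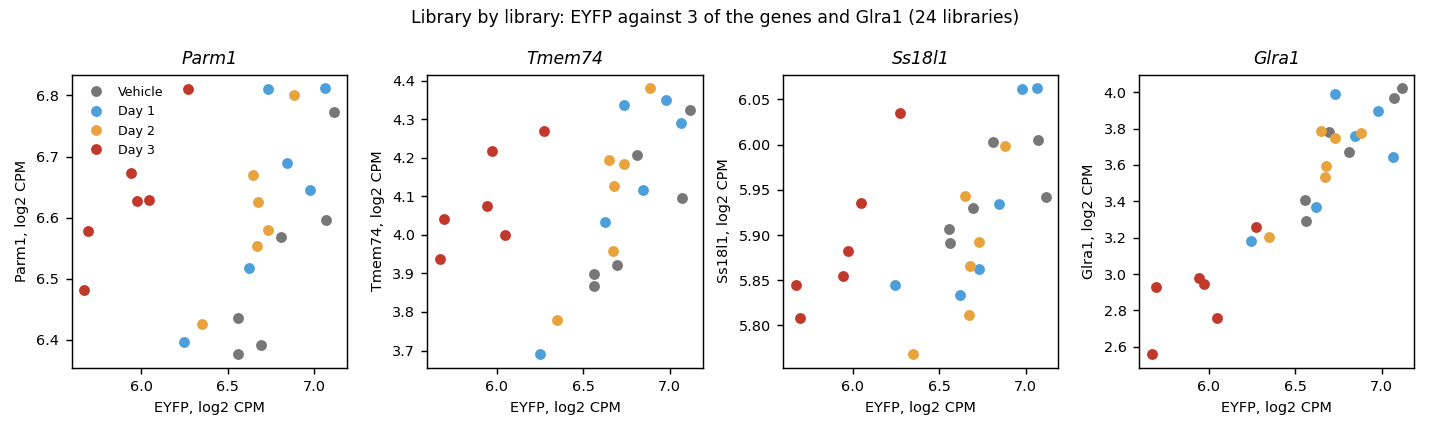
Log2 CPM of Parm1, Tmem74, Ss18l1 and Glra1 (vertical axes) against log2 CPM of EYFP (horizontal axes) in 24 libraries coloured by group. The day 3 libraries are shifted left at the heights of the other groups for the first 3 genes, and lie lower along the same trend for Glra1.

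The ratio of EYFP to each gene combines the fall of EYFP at day 3 with the scatter that chose the genes, and is given as a description. For Parm1, the log2 ratio of EYFP to Parm1 lay between -0.89 and -0.54 at day 3 and between 0.12 and 0.48 in vehicle. For 9 of the 10 genes the ratio in all 6 day 3 libraries was below that of all 18 other libraries, and Zfp804b was the exception. The same held for 4487 of all 16766 genes set against EYFP in this way (26.8%). The mean log2 ratio at day 3 minus that in vehicle was -0.98 (Parm1) to -0.82 (Ss18l1) over the 10 genes. For Glra1 the difference was -0.09 and the groups overlapped. Over the 18 libraries left without day 3, a setting chosen after the data were seen, r of the 10 genes with EYFP was 0.60 to 0.81 with no fit of group or sex.

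The r with libraries left out is likewise a description, since the same libraries chose the genes. After group and sex, r was 0.63 to 0.80 without the 2 libraries farthest from their fit in EYFP (day 1 replicates 1 and 2), and 0.67 to 0.89 without any 1 library. Group and sex were fitted again for the range without 1 library, whereas the range without 2 kept the fit of all 24 libraries. With no fit of group or sex, r was 0.25 to 0.57 without the 2 libraries farthest from the median of EYFP (day 3 replicates 1 and 5). The first 2 digits of the animal number were also used as a grouping, although the labels do not state one. With these digits added to group and sex, r was 0.62 (Pcsk5) to 0.88 (Zfp804b), and the ranks of the 10 genes then ran from 1 to 195.

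Genes that were each chosen for a high r with EYFP must also correlate with each other to some extent, so the pairs are given as a description only. After group and sex were fitted, r over their 45 pairs ran from 0.40 (Tmem132a with Eya3) to 0.89 (Parm1 with Tmem74), with a median of 0.64. All 10 lay above their fitted value in day 1 replicate 1, vehicle replicate 3 and day 3 replicate 3, where EYFP was above its own fit by 0.39, 0.37 and 0.26 log2 units. In day 1 replicates 2 and 4 and day 3 replicate 5, 0 of 10 lay above, and EYFP was at -0.42, -0.20 and -0.32. The SD left after group and sex was 0.229 log2 units for EYFP and smaller for 9 of the 10 genes, at 0.073 for Mfsd6, with Zfp804b (0.458) the exception.

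In bulk tissue, fewer cells of a type and less RNA per cell cannot be told apart, so the levels of cell type markers are given beside the covariation. After group and sex were fitted, the mean of the 11 oligodendrocyte markers had r of -0.64 with EYFP and of -0.75 to -0.44 with the 10 genes. The 10 endothelial and pericyte markers had r of -0.67 with EYFP and of -0.75 to -0.45 with the 10 genes. The 11 deep cortical markers had r of 0.42 with EYFP and of 0.05 to 0.67 with the 10 genes, while the 14 superficial entorhinal markers had -0.10 with EYFP and -0.24 to 0.42 with the 10 genes. The astrocyte list had -0.59 to -0.18 with the 10 genes, microglia -0.50 to -0.067, interneuron -0.52 to -0.13 and red blood cell -0.46 to -0.068, so these were negative for all 10 genes too.

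With EYFP, r was -0.47 for astrocyte, -0.35 for microglia, -0.38 for choroid plexus, -0.48 for interneuron and -0.26 for red blood cell markers, 0.17 for general neuron markers and 0.06 for immediate early genes. Single abundant genes followed their lists in part: the myelin gene Mbp had -0.51, the vessel gene Flt1 had -0.73, and the deep cortical genes ran from -0.36 to 0.72 (Nr4a2, which is also in the immediate early list), with Tbr1 at 0.16 and Bcl11b at -0.03. Among general neuron genes, Syt1 had 0.63 and Camk2a had -0.67.

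Summed oligodendrocyte markers spanned 2546 to 3576 CPM in vehicle, 2872 to 3748 CPM at day 1, 2590 to 3318 CPM at day 2 and 2619 to 3498 CPM at day 3. The endothelial and pericyte sum spanned 347 to 455 CPM in vehicle, 362 to 454 CPM at day 1, 362 to 435 CPM at day 2 and 361 to 446 CPM at day 3. The deep cortical sum spanned 851 to 948 CPM in vehicle, 828 to 934 CPM at day 1, 824 to 1027 CPM at day 2 and 883 to 967 CPM at day 3. The superficial entorhinal markers summed to 1909 to 2184 CPM over the 24 libraries. The ranges of these lists overlapped between groups, all genes of the lists were measured, and none was at 0 in any library. The part of these markers in the covariation was not tested.

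**Figure D5:**
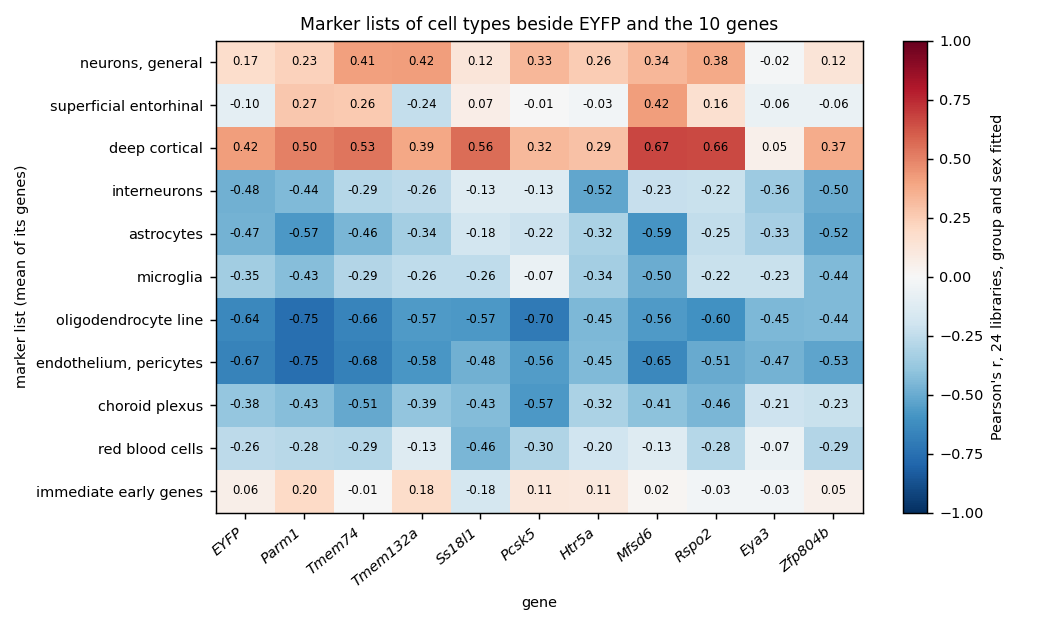
Pearson's r over 24 libraries, after group and sex are fitted, between the mean of each marker list (rows) and EYFP and the 10 genes (columns), on a colour scale of -1 to 1. The oligodendrocyte, endothelial, astrocyte, microglia, choroid plexus, interneuron and red blood cell rows are negative in every column, and the deep cortical row is positive in every column.

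Of the 10 astrocyte markers 1, Gfap, was called higher at days 2 and 3. At day 3, 4 of the 10 microglial markers were called higher, and the median log2 fold change of that list was 0.22. Gfap, an intermediate filament of reactive astrocytes, averaged 399 ± 46.6 CPM at day 3 and 187 ± 23.3 CPM in vehicle (SD, n = 6 each; log2 fold change 1.12 ± 0.08 SE, adjusted p = 1.77e-10, edgeR). Its r with EYFP was -0.80 over the 24 libraries and -0.02 after group and sex. The microglial genes Cx3cr1, Trem2 and Tyrobp had log2 fold changes at day 3 of 0.26, 0.48 and 0.69, with adjusted p of 0.0412 or less in edgeR. Microglial genes not called at day 3 included P2ry12 (0.03), Tmem119 (0.06), Aif1 (0.11) and Itgam (0.15). Of the 17 immediate early genes 1, Egr3, was called lower at day 1 (log2 fold change -0.74 ± 0.12, adjusted p = 0.00602, edgeR).

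Choroid plexus RNA was uneven among the libraries. Ttr, its most abundant marker, stood at 554 to 1170 CPM in 8 libraries (1 vehicle, 2 day 1, 2 day 2 and 3 day 3) against 8.36 to 25.9 CPM in 16 others. The mean deviation of the 10 genes from their fit was -0.23 to 0.12 log2 units in the 8 (median -0.041) and -0.14 to 0.22 in the 16 (median 0.062). The ranges overlapped, and the 3 lowest libraries, day 1 replicates 2 and 4 and day 2 replicate 4, were among the 8. The choroid plexus list had r of -0.58 to -0.21 with the 10 genes after group and sex, and its part in the covariation was not tested. In the 16 alone, r with EYFP after group and sex, with the fit of all 24 libraries kept, was 0.64 to 0.80 for the 10 genes.

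Relatives and pathway partners of the 10 genes were tested in the same fit, 85 genes in 8 lists. The edgeR test called 0 of 85 on each day, with 7, 7 and 5 at an unadjusted p under 0.05 on days 1, 2 and 3, beside 1215, 872 and 946 of all 16767 genes, and DESeq2 and limma voom each called 0. Their median r with EYFP after group and sex was -0.02, with a range of -0.66 to 0.69. The 18 R-spondin and Wnt pathway genes listed with Rspo2 had r of -0.48 (Nkd1) to 0.41 with a median of -0.15. Dkk3 was at 0.24, Lrp6 at 0.03 and Lgr4 at -0.10. The median log2 fold change of the 18 genes was 0.02 at day 3.

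Of the 11 serotonin receptors beside Htr5a, Htr1a had r of 0.59, Htr2a 0.15 and Htr2c -0.17, and the median was 0.09. Of the 8 convertases beside Pcsk5, Pcsk1, a convertase of neuropeptide precursors, had the highest r, 0.69. Furin had -0.20, and the median of the 8 was -0.086. Among the 10 partners and relatives of Eya3, Eya1 had the lowest r, -0.66, and the median was -0.121. Tmem132b had 0.61, the highest among the 5 relatives of Tmem132a and Tmem74, whose median was 0.07. Zfp804a had 0.41. The 21 other genes listed with Ss18l1 were BAF complex genes, not all of the neuronal form, and Crebbp. Their r had a median of 0.003 and included Smarca4 (0.33). The 11 other Mfsd genes had a median of -0.025, with Mfsd4a (0.34) the highest.

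Levels of different genes were compared per length, in vehicle CPM per kilobase of exon. Tmem132a was highest at 45.8 ± 1.89 (SD, n = 6), at the 94.3 percentile of tested genes, followed by Parm1 at 18.2 ± 1.98. Next came Ss18l1 (14.2 ± 0.474) and Mfsd6 (14.2 ± 0.916), then Rspo2 (6.31 ± 0.842) and Eya3 (5.94 ± 0.439). Tmem74 (4.74 ± 0.627) and Htr5a (4.12 ± 0.223) followed. All genes were measured in the same 6 libraries, so these SDs do not test a difference between genes. Pcsk5 (1.24 ± 0.136) and Zfp804b (0.428 ± 0.148, at the 13.0 percentile) were lowest. The 10 genes thus spanned high to low expression in this tissue.

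The 10 genes lie on 6 chromosomes. Zfp804b, Htr5a and Parm1 are on chromosome 5, Rspo2 and Tmem74 on 15, Tmem132a and Pcsk5 on 19, Mfsd6 on 1, Ss18l1 on 2 and Eya3 on 4. Rspo2 and Tmem74 are near each other, with Eif3e and Emc2 as the tested genes between them, at r after group and sex of 0.07 and 0.49. Over the 56 tested genes within 3 places of the 10 genes, that r ran from -0.49 to 0.70, with a median of 0.08. Oxr1, next but one to Rspo2, had the highest of these, 0.70.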

How the data were processed

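The deposited table holds raw whole-number read counts per gene for 24 libraries, made by the authors and not normalised. The submitters' processing notes name fastp 0.23.1, STAR 2.7.9a, DESeq2 1.32.0 and mm39; roles, counter, annotation and strand use are not given in the sources, so reads of overlapping genes cannot be told apart. Totals were 16.6 to 23.7 M counts a library, and no 2 libraries of a group agreed within sampling noise (chi-square over degrees of freedom 3.94 to 13.8, 60 pairs). All columns were used.

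Counts were fitted in edgeR 4.0.16 (R 4.3.3) with TMM factors, filterByExpr (minimum count 10, total 15), group and sex, and tested by the quasi-likelihood test, two-sided, with Benjamini-Hochberg adjustment at 0.05. The common biological coefficient of variation was 8.51%. Log2 CPM used a prior count of 2, and residuals after group and sex came from a linear model of log2 CPM. DESeq2 1.42.0, limma 3.58.1 and the settings given under processing were alternatives. A test on simulated day 3 counts (16591 genes) found 78% of genes raised 1.5-fold and 90% of those raised 2-fold; false ones made up 9 of its 189 calls. Symbols came from an identifier table (52083 matched), exon lengths from GENCODE and gene order and promoters from RefSeq. The 10 genes and all lists were chosen with earlier results of these data known. Named genes were the 10 genes, EYFP, Glra1 and Klk8, the 10 genes with the highest r with EYFP and the rank neighbours of the lowest of the 10, list members called or among the 4 most abundant, and nearby genes with r above 0.6; Eif3e and Emc2 were named after their values were seen. Some genes that this rule would name are not reported here.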

Additional observations from a re-analysis of the deposited data

Results flagged for a closer look

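The highest and the lowest library were compared with the others in 52 sets of 6 libraries (the 10 genes, EYFP, Glra1 and Klk8 in each of 4 groups), and 2 sets held a library far from the rest by Dixon's criterion; chance flags about 1 in 20. Rspo2 was at 40.9 CPM in vehicle replicate 3, where the other vehicle libraries lay between 28.9 and 31.3 CPM. Zfp804b was at 2.58 CPM in day 2 replicate 3, where the other day 2 libraries lay between 1.37 and 1.82 CPM. In vehicle replicate 3, 10 of the 10 genes were above their fitted value, and in day 2 replicate 3, 9 of 10 were. The genes were chosen on these same libraries for moving with EYFP, so these counts lend the flags no weight.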

How the results depend on the processing

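EYFP was called at day 3 in every alternative, with log2 fold changes of -1.05 (without libraries rich in Ttr) to -0.82, and at days 1 and 2 in none; its day 1 value was -0.17 to 0.02 on leaving out single libraries. The 960 alternative log2 fold changes of the 10 genes moved by less than 1 SD, and none was called. The median r of the 10 genes with EYFP, 0.47 over all libraries, was 0.76 after group and sex were fitted, 0.767 with the animal number prefix added, 0.816 within vehicle, 0.831 within day 1, 0.735 within day 2, 0.794 within day 3 and 0.589 in libraries poor in Ttr. In settings added after seeing the data it was 0.689 without day 3 and, after group and sex, 0.702 without the 2 libraries farthest from their fit in EYFP and 0.728 in libraries poor in Ttr. For 0.702 and 0.728 the fit of group and sex was that of all 24 libraries. On leaving out single libraries, with no fit of group or sex, the median r was 0.417 to 0.504. Of 400 alternative r of single genes, 84 moved by more than their jackknife SE. That limit differs from the SD used for the log2 fold changes, so the counts cannot be compared.

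Genes called at day 1 (11) numbered 159 with no filter, 69 by DESeq2 and 31 with the animal number prefix, and 4 to 28 on leaving out single libraries: 4 without vehicle replicate 6, 5 without vehicle replicate 4 or day 1 replicate 1, 6 without day 1 replicate 4, 19 without day 1 replicate 2, 22 without day 2 replicate 3 and 28 without vehicle replicate 3. At day 2 (11) they numbered 86 with no filter, 18 by DESeq2, 7 by limma voom, 3 with only the 2 groups fitted and 2 in libraries poor in Ttr, and 7 (without day 2 replicate 2 or vehicle replicate 5) to 12 on leaving out single libraries. At day 3 (103) they numbered 217 with no filter and 49 in libraries poor in Ttr, and 72 to 110 on leaving out single libraries. The cause of these shifts was not tested. No paired analysis was possible because replicate numbers follow accession order and so pair no libraries; the first digits of the animal number, shared by libraries of several groups, gave 31, 8 and 96 calls on days 1, 2 and 3 as a factor. Depth limits Zfp804b most, at 19 to 71 reads a library.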
